A study of Mus musculus with 8 samples.

Results

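The libraries described here were made from mouse embryonic stem cells treated with a negative control siPOOL, and their whole transcriptome was read by abundance rank, gene class and gene family. They are the 2 siNeg libraries of the 8 libraries in the series, chosen by their label. A siPOOL is a mixture of many small interfering RNAs, here transfected at 5 nM with a lipid reagent, and RNA was taken 36 h later. The cells were E14 stem cells of 129/Ola background, derived from a blastocyst. They carried a knockout of the miR-290-295 microRNA cluster, as did the cells of every other group, so no library of cells with the cluster stands beside them. They were grown on gelatin in medium with 15% serum and 100 U/ml of the cytokine LIF. The 2 libraries are biological duplicates per the series design, and nothing more is stated of how their cultures were separated. No comparison with the siPOOLs against Tfap4, Wiz and Zic2 is made.

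Embryonic stem cells keep the ability to form all tissues of the embryo while a small set of transcription factors, with Pou5f1 (Oct4), Sox2 and Nanog at its centre, holds them in that state. In serum, LIF acts through its receptor and STAT3 to sustain self-renewal, BMP signals add to it, and FGF4 made by the cells themselves pushes towards differentiation through ERK. MicroRNAs of the miR-290-295 cluster are abundant in wild-type mouse stem cells, where they shorten the G1 phase by repressing inhibitors of the cell cycle.

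The cluster that these cells lack lies on chromosome 7 of GRCm38.p6, on the plus strand. RefSeq mature sequences were matched for 13 of its microRNAs, 6 of them 3p arms, and the 3p arms are shown because their seed (bases 2 to 8, in capitals) sets which messages they repress. No 3p sequence was matched for miR-292a, so the counts cover the matched arms and not the whole cluster. Of the 6 matched arms, 5 hold AAGUGC, and 3 share the full seed AAGUGCU, namely miR-291a-3p, miR-294-3p and miR-295-3p.
miR-291a-3p (chr7:3218968-3218989): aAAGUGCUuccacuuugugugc
miR-294-3p (chr7:3220691-3220712): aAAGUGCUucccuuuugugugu
miR-295-3p (chr7:3220815-3220837): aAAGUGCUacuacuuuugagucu
miR-290a-3p (chr7:3218674-3218697): aAAGUGCCgccuaguuuuaagccc
miR-291b-3p (chr7:3219529-3219550): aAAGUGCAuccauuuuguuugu
miR-293-3p (chr7:3220390-3220411): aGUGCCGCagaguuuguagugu
All 9 hairpin genes of the cluster that the table lists had 0 counts in both libraries, which allows a level of up to 0.263 CPM and 0.278 CPM by counting error. This is no check of the knockout, because these libraries read the ends of polyadenylated RNA and hairpins carry no poly(A) tail. Of all 1169 microRNA hairpin genes, 1118 had 0 counts in both libraries.

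The library totals were 11395211 and 10795092 counted reads over 55421 genes. Levels are read counts scaled to a library total of 1000000 (CPM), and a pair of values gives library 1 and then library 2. Each message is read near its poly(A) tail, so the CPM of a gene was not divided by its length. A gene counts as on at 1 CPM or more in both libraries, high at 100 CPM or more in both, off at 3 counts or fewer in each, and low otherwise. The libraries differed by more than counting noise, with a chi-square of 37.7 per degree of freedom over 15400 genes, so they are not 1 library counted again. Across the 12799 genes on, Pearson's r of log2 CPM was 0.972 and Spearman's rank correlation was 0.973, as a description across genes, which are not independent replicates.

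The cells had 12799 genes on, 23.1% of those listed, and 1775 of them were high. Protein-coding genes made up 11458 of the genes on, 52.2% of the protein-coding genes. A further 2202 protein-coding genes were low and 8303 were off, of which 6375 had no read in either library. Long non-coding RNAs followed with 588 of 9919 on, then pseudogenes with 372 of 13522, and 307 of 3214 gene models marked TEC in the annotation, a tag for models that await experimental evidence. The share on in these classes was 5.93%, 2.75% and 9.55%, each below that of protein-coding genes. Between 496 and 606 genes held 50% of the reads, and 99% of the reads came from 9981 to 10374 genes. The 38196 genes off together held 0.0562% and 0.0487% of the reads.

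**Figure D1:**
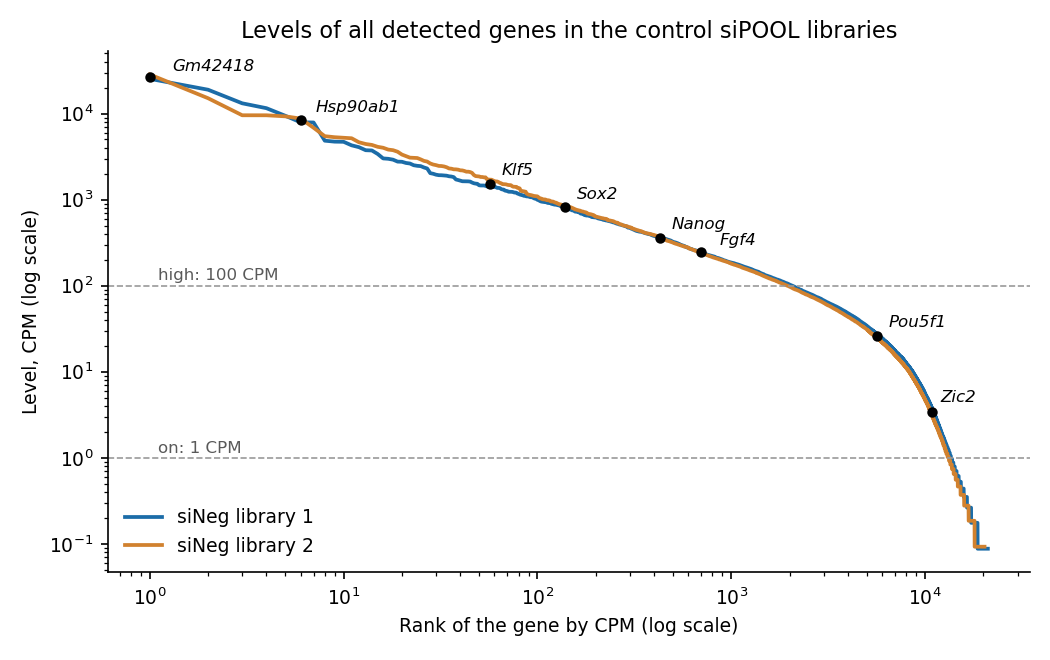
Level of each gene in CPM (log scale) against its rank (log scale) in siNeg libraries 1 and 2, with named genes as black points at their mean level and rank. The curves of the libraries lie close together below 100 CPM, and Pou5f1 sits below Sox2, Nanog and Fgf4.

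The most abundant entry was Gm42418, a long non-coding RNA model on chromosome 17 known to overlap an rRNA repeat, at 25333 CPM and 28479 CPM, or 2.53% and 2.85% of all reads. Mitochondrial transcripts filled the next ranks: mt-Nd4 stood at 18937 CPM and 15083 CPM, the ribosomal RNA mt-Rnr2 at 13163 CPM and 9558 CPM and mt-Cytb at 11554 CPM and 9553 CPM. The leading nuclear message was Hsp90ab1, the constitutive cytosolic chaperone, at 7879.5 CPM and 8753 CPM, and its inducible relative Hsp90aa1 stood at 4277 CPM and 5227 CPM. Nucleolar and growth-related messages shared these ranks: the nucleolar protein Ncl was at 4842 CPM and 5313 CPM and Npm1 at 2913 CPM and 3206 CPM. Eif2s2, a subunit of the initiation factor that brings the first tRNA to the ribosome, reached 4070.4 CPM and 5166 CPM. Among the 30 most abundant entries were 11 messages of ribosomal proteins, and the others included Actb at 3752 CPM and 4322 CPM, the tubulin Tuba1b at 2031 CPM and 3339.6 CPM, the chromatin protein Ptma at 3012 CPM and 3075 CPM and the nuclear RNA Malat1 at 4699.9 CPM and 2045 CPM. The 10 most abundant genes held 10.7% and 10.05% of the reads, the first 100 held 25.9% and 28.6%, and the first 1000 held 58.6% and 61.6%.

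Protein-coding genes outside the mitochondrial genome took 87.7% and 89.3% of the reads (88.5% ± 1.17, SD, n = 2). The mitochondrial genome took 6.81% and 5.08%, long non-coding RNAs 4.29% and 4.15%, and pseudogenes 0.910% and 1.22%. Most of the long non-coding share came from Gm42418, the model that overlaps an rRNA repeat, with 2.53% and 2.85% of all reads. Small nucleolar RNAs stayed at 0.0239% and 0.0326%. The exact (Clopper-Pearson) 95% interval of the mitochondrial share ran from 6.80% to 6.83% in library 1 and from 5.07% to 5.10% in library 2, and the intervals of the libraries did not overlap in any of these 5 classes. Counting intervals take reads as independent, which PCR copies without known molecular identifiers are not. By chromosome, the X held 2.47% and 2.40% of the reads and the Y 0.0434% and 0.0497%.

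**Figure D2:**
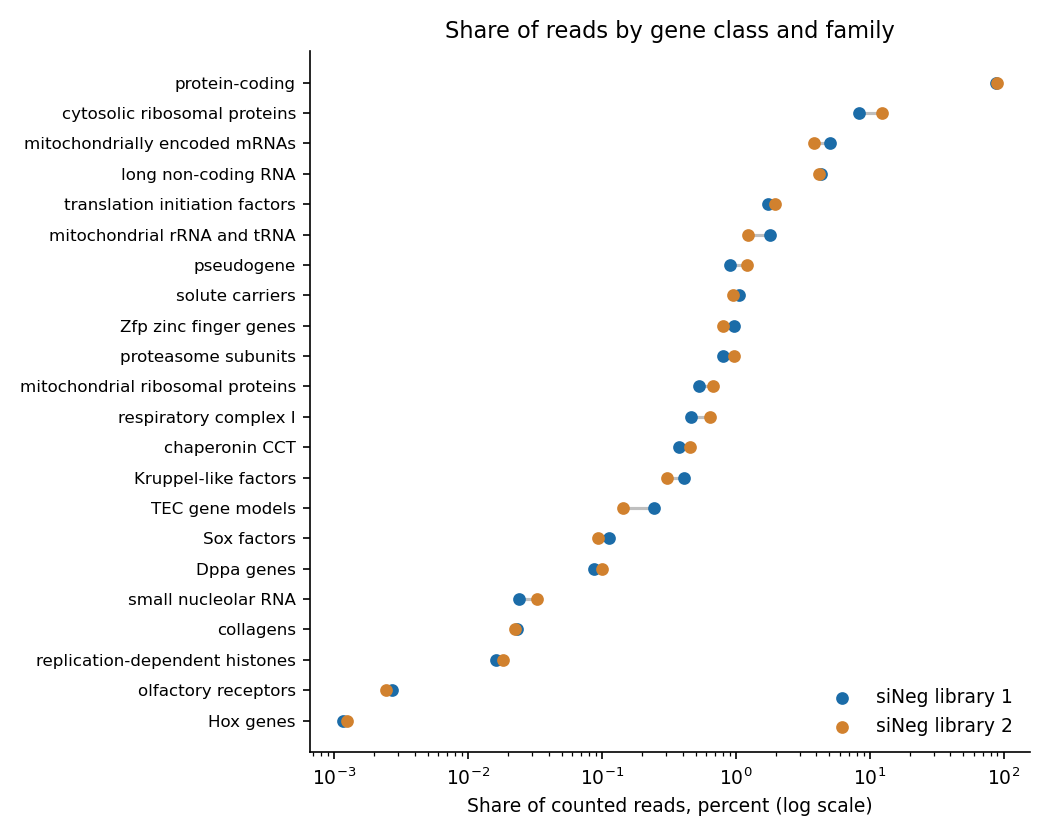
Share of all counted reads in percent (log scale) held by gene classes and families in siNeg libraries 1 and 2, joined by a grey line. Ribosomal protein genes lie to the right in library 2 and mitochondrially encoded mRNAs in library 1, while Hox genes and olfactory receptors lie near 0.001%.

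The genes for cytosolic ribosomal proteins formed the family with the most reads. They held 8.32% and 12.4% of the reads (10.4% ± 2.88, SD, n = 2), 86 of the 87 were on and 76 were high, with a median of 950 CPM. Rps12 led at 3726 CPM and 6845 CPM, then Rpl37 at 2982 CPM and 5462 CPM and Rps26 at 3392 CPM and 4644 CPM. Library 2 was higher for 78 of the 87 genes, by a median of 1.45-fold. Translation initiation factors added 1.74% and 1.95%, with 46 of 48 genes on, and the mitochondrial ribosomal proteins 0.533% and 0.670%, with 76 of 78 on. All 8 subunits of the cytosolic chaperonin CCT, which folds actin and tubulin, were high, from Cct2 at 643 CPM and 737 CPM down to Tcp1 at 259 CPM and 348 CPM, and the testis form Cct6b was low at 0.175 CPM and 0.834 CPM. Of 48 proteasome genes 45 were on, led by Psma7 at 462 CPM and 675 CPM, and of 36 genes for respiratory complex I 35 were on, led by Ndufa2 at 224 CPM and 407 CPM.

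The mitochondrially encoded mRNAs held 5.02% and 3.85% of the reads (4.43% ± 0.830, SD, n = 2), but only 7 of 13 were on. Alongside mt-Nd4 and mt-Cytb, mt-Nd1 stood at 9438 CPM and 9285 CPM and mt-Nd5 at 922 CPM and 625 CPM, all subunits of complexes I and III. The cytochrome oxidase message mt-Co1 stood at 1398 CPM and 1513 CPM, while mt-Co2, mt-Co3 and mt-Nd4l had 0 counts in both libraries. The other 3 that were not on were mt-Nd3 with 11 and 2 counts, mt-Atp8 with 3 and 0 counts and mt-Atp6 with 1 and 0 counts. Reads of a transcript end that also occurs elsewhere may be dropped or split. The last 200 bases of each gene were therefore compared, in windows of 50 bases, with annotated transcripts of genes that do not overlap it. Overlapping genes were left out, so 0 shared windows does not exclude an end shared with an overlapping gene. All windows of the ends of mt-Co2 and 98.0% or more of those of mt-Co3, mt-Nd4l, mt-Nd3 and mt-Atp6 occurred in another gene model, against 0 of 151 windows for mt-Nd4, mt-Cytb and mt-Nd1. Sharing and level did not go together throughout. The end of mt-Co1 was shared in full and that of mt-Nd2 in 53.0% of windows, although mt-Co1 was high and mt-Nd2 stood at 7919.7 CPM and 2378 CPM, rank 8. The entry mt-Atp8 had 0 of 151 windows shared, but it (7766-7969) overlaps mt-Atp6 (7927-8607), whose end was 98.0% shared. The entry mt-Nd4l (9877-10173) likewise overlaps mt-Nd4 (10167-11544). An annotated end inside another gene need not be the end of a message, so few counts there do not show that the message was absent. The part of shared ends in these levels was not tested.

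Shared ends occurred in other families too. Of 19385 protein-coding genes with 0 windows shared with a non-overlapping gene, 56.3% were on. Of 1274 with at least 50% of windows shared, 12.4% were on. The glycolytic genes Gapdh, at 142 CPM and 117 CPM, and Eno1, at 77.3 CPM and 44.00 CPM, had 71.5% and 98.0% of windows shared. Of other enzymes of the pathway, both with 0 windows shared, Aldoa stood at 1026 CPM and 1072 CPM and Pgk1 at 7.28 CPM and 2.04 CPM. Among protein-coding genes on, the median was 24.7 CPM with no window shared and 20.2 CPM with at least 50% shared. The classes can differ in the kinds of genes they hold. Of 330 vomeronasal receptor genes, for example, 72 had at least 50% of windows shared and 2 of the 330 were on. The part of shared ends in the share of genes on was not tested. Of the ribosomal protein genes 31 had at least 50% shared, yet Rps12, with 91.4% shared with 23 other genes, led the family. Among pseudogenes, 372 were on and the leading 5 were Gm11942, Gm10036, Rps13-ps1, Gm15459 and Rps4l, from 2301 CPM and 3815 CPM for the first to 424 CPM and 492 CPM for the last. Gm15459 had an end found in full in another gene, and Gm10036 had 78.1% of its end shared, so reads of these stretches cannot be told apart from those of their copies.

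All 18 core and general pluripotency factors were on, and 14 were high. Among all protein-coding genes, 52.2% were on and 1735 of 21963 were high, and the counts of every list below are to be read beside these. The telomere and replication protein Rif1 led the list at 1415 CPM and 1033 CPM, followed by Trim28, the corepressor of endogenous retroviruses, at 939.9 CPM and 1030.4 CPM and the RNA-binding protein L1td1 at 881 CPM and 853 CPM. Sox2 stood at 909 CPM and 730.2 CPM (mean 819.7 ± 126 CPM, SD, n = 2) and Nanog at 422 CPM and 303 CPM (mean 362 ± 84.04 CPM, SD, n = 2), ranks 139 and 427 of all genes. Sall4, Utf1, Dppa4, Dppa2 and Zfp42 (Rex1), chosen after their values were seen, lay between 164 and 360 CPM in each library. The lowest of the list was Lin28b at 13.8 CPM and 8.24 CPM, beneath its relative Lin28a at 66.96 CPM and 60.2 CPM, a pair that blocks the maturation of let-7 microRNAs.

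Pou5f1, the third of the defining factors, was on but far lower, at 25.8 CPM and 26.5 CPM (294 and 286 counts), rank 5644. Sox2 was 35.2 and 27.6 times as high in the same libraries, and Nanog 16.3 and 11.4 times. The gene lies on chromosome 17 (chr17:35506018-35510772, plus strand), and 0 of 151 windows at its annotated end occurred in a non-overlapping gene. An antisense model on the other strand, Gm19553 (chr17:35509077-35510551), overlaps part of the last 500 bases of Pou5f1 and had 0 counts in both libraries. Whether the counting used strand is not given in the sources used here, and the part of this overlap in the level was not tested. Actg1 and Pgk1, chosen after their values were seen, are given as other genes listed at a low level with no shared end found. Actg1, the cytoplasmic actin beside Actb, stood at 2.37 CPM and 2.69 CPM, with 0 of 151 windows shared and no gene on the other strand, against 3752 CPM and 4322 CPM for Actb. Pgk1, another glycolytic enzyme with 0 windows shared, stood at 7.28 CPM and 2.04 CPM. Ends were compared only with annotated transcripts of non-overlapping genes, so copies elsewhere in the genome were not searched. The level of Pou5f1 is reported as listed, and its cause was not tested.

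Factors of the naive state, the ground state of the preimplantation epiblast, were on throughout: 18 of 18, with 10 high. Klf5 was the leader at 1660.1 CPM and 1408 CPM, followed by Klf2 at 680.4 CPM and 635 CPM, Dppa5a at 397 CPM and 472 CPM and Tfcp2l1 at 426 CPM and 394 CPM. Esrrb, the orphan nuclear receptor downstream of Gsk3 inhibition, stood at 349 CPM and 431 CPM, while Klf4 was lower than Klf5 by 18.1-fold and 23.1-fold at 91.5 CPM and 60.9 CPM. Nr0b1 (Dax1) differed most between the libraries, at 159.5 CPM and 39.7 CPM. Prdm14 at 12.9 CPM and 13.99 CPM and Dppa3 (Stella) at 11.7 CPM and 8.89 CPM were the lowest of the list.

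Markers of the formative and primed states, which follow the naive state at implantation, were partly present. Of 18 measured, 16 were on and 5 were high, led by the ETS factor Etv5 at 325 CPM and 416 CPM, and with the de novo methyltransferase Dnmt3b at 259.8 CPM and 144 CPM and the Nodal antagonist Lefty1 at 104 CPM and 169 CPM. Otx2 stood at 45.6 CPM and 28.2 CPM and Pou3f1 (Oct6) at 9.13 CPM and 5.00 CPM. Fgf5, a marker of the primed epiblast, had 4 and 1 counts, and Cer1 had 0 counts. At the other end of development, none of 19 markers of the 2-cell-like state was on: 13 were off, 9 of them with 0 counts, and Usp17la led at 0.965 CPM and 2.41 CPM. The Zscan4 genes share sequence with one another, and Zscan4d, the highest of them, had 8 and 11 counts. Of the 19 markers of the 2-cell-like state, 7 had at least 50% of the windows of their end shared with other genes. Reads of such ends may be dropped or split, so few counts there do not show that the message was absent. What shared ends did to the counts of this list was not tested.

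Markers of other cell types varied by lineage. The share on was 45.0% for primitive endoderm, 50% for trophectoderm and 47.1% for neural markers, near the 52.2% of all protein-coding genes. It was 82.4% for germ cell markers, and 23.5%, 15.4% and 13.6% for mesoderm, fibroblast and differentiated tissue markers. In bulk RNA, a few cells with much of a transcript and many cells with little of it cannot be told apart. Of 20 markers of primitive endoderm, the extraembryonic layer that makes basement membrane, 9 were on. All 20 together summed to 757 CPM and 584 CPM. The matrix genes made up nearly all of that: Sparc stood at 420.1 CPM and 403 CPM, Lamc1 at 218 CPM and 95.5 CPM, Lamb1 at 70.5 CPM and 54.2 CPM and Lama1 at 24.6 CPM and 19.6 CPM. The defining factors were near the floor, Gata4 at 1.49 CPM and 1.85 CPM, Gata6 with 14 and 5 counts and Sox17 with 3 and 9 counts, and Afp had 0 counts. Of 18 trophectoderm markers 9 were on, led by Tfap2c at 188 CPM and 242 CPM, which stem cells and germ cells also express, with Fgfr2 at 26.3 CPM and 21.03 CPM, Tead4 at 15.8 CPM and 15.8 CPM and Eomes at 9.48 CPM and 7.23 CPM. Cdx2, the defining factor of this layer, had 3 and 1 counts, and the placental genes Tpbpa, Prl3d1 and Prl2c2 had 0 counts.

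Mesoderm and primitive streak markers summed to 13.1 CPM and 17.0 CPM over 17 genes, of which 4 were on: Hhex, Mesp2, Kdr and Pdgfrb, the highest being Hhex at 3.60 CPM and 4.91 CPM. T (Brachyury) had 1 and 4 counts and Hand2, Foxf1 and Msgn1 had 0. Among 17 neural markers 8 were on, Tubb3 at 50.5 CPM and 59.2 CPM, Pax6 at 12.3 CPM and 20.7 CPM, Sox21 at 14.04 CPM and 7.69 CPM and Map2 at 9.04 CPM and 8.34 CPM being the highest. The proneural genes Neurog1 and Neurog2 and the neural genes Dcx, Pax3 and Zic1 had 0 counts. Fibroblast and feeder markers came to 16.1 CPM and 11.95 CPM, with Thy1 at 12.2 CPM and 9.26 CPM and Twist1 at 3.16 CPM and 1.11 CPM the only 2 of 13 on, and the collagen Col3a1 with Postn, Lum, Prrx1 and S100a4 at 0 counts. The cells had been grown on gelatin, without mention of feeders.

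Of 17 germ cell markers 14 were on, but 1 was high and the median of the list was 5.72 CPM. Rhox5, an X-linked homeobox gene, led at 404 CPM and 513 CPM, then Stra8, which marks entry into meiosis, at 50.4 CPM and 149 CPM and Prdm1 at 57.7 CPM and 54.3 CPM. The piRNA pathway genes Mael at 12.6 CPM and 20.3 CPM and Piwil2 at 14.4 CPM and 15.5 CPM and the germ cell RNA helicase Ddx4 at 5.88 CPM and 5.56 CPM were on as well. Nanos2 had 0 counts. Of 22 markers of differentiated tissues 3 were on: the podocyte gene Nphs1 at 42.6 CPM and 24.6 CPM, and the blood factors Tal1 at 4.30 CPM and 4.82 CPM and Gata1 at 1.23 CPM and 1.85 CPM. Myod1, Sftpc, Alb, Umod, Hbb-bs, Krt5 and Hba-a1 were among those with 0 counts.

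**Figure D3:**
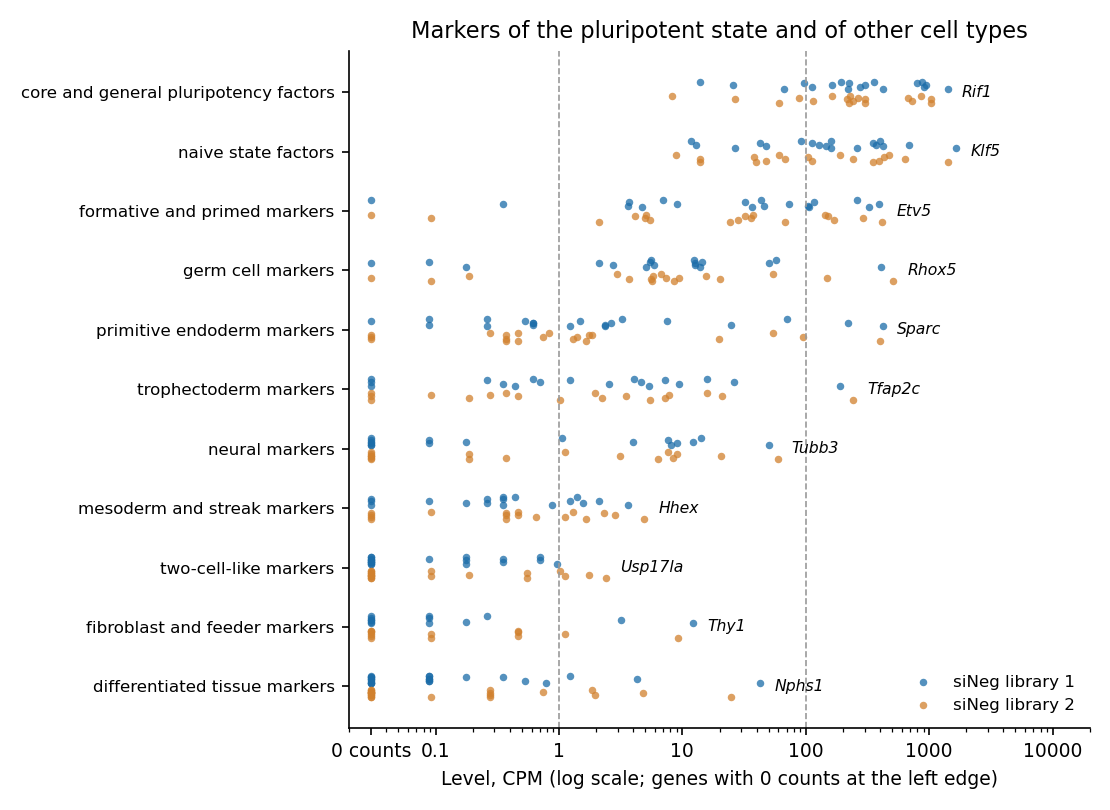
Level in CPM (log scale) of each member of the marker lists in siNeg library 1 (blue, upper row) and library 2 (orange, lower row), with the leading gene named, dashed lines at 1 and 100 CPM and genes with 0 counts at the left. The 18 core factors and 18 naive factors all lie above 1 CPM, and most markers of mesoderm, fibroblasts and tissues lie below it.

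In the LIF pathway, 16 of 18 genes were on, while the ligand was scarce: Lif stood at 2.11 CPM and 0.741 CPM and Il6 had 0 counts. The receptor chains Lifr and Il6st (gp130) stood at 70.99 CPM and 44.2 CPM and 74.5 CPM and 66.5 CPM, and the kinase Jak1 at 86.2 CPM and 91.2 CPM. Stat3 stood at 182 CPM and 188 CPM. The feedback inhibitors Socs2 and Socs3 were at 196 CPM and 197 CPM and 189 CPM and 93.3 CPM, while Jak2 and Jak3 stayed below 10 CPM.

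FGF ligands came down to a single abundant gene. Fgf4 stood at 224 CPM and 266 CPM, and the next ligand, Fgf1, at 10.7 CPM and 7.23 CPM, was 20.9 and 36.8 times lower. Of 22 ligand genes 7 were on and 7 had 0 counts, namely Fgf6, Fgf8, Fgf12, Fgf14, Fgf16, Fgf20 and Fgf23. On the receiving side 22 of 23 genes were on and 4 were high, among them the ERK phosphatase Dusp6 at 190.3 CPM and 129 CPM. The receptors followed the order Fgfr1 at 50.7 CPM and 36.4 CPM, Fgfr2 at 26.3 CPM and 21.03 CPM, Fgfr3 at 1.05 CPM and 2.32 CPM and Fgfr4 with 5 and 2 counts, and the libraries of neighbours in this order did not overlap.

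Among Wnt genes too, a smaller share of the ligand genes than of the receptor genes was on. Of 19 ligand genes 2 were on, Wnt7b at 19.1 CPM and 24.9 CPM and Wnt6 at 1.84 CPM and 2.22 CPM, and Wnt1, Wnt2, Wnt2b, Wnt9b and Wnt10b had 0 counts. Of 15 receptor genes 12 were on, led by Ryk at 101 CPM and 73.7 CPM, Fzd5 at 84.6 CPM and 52.2 CPM and the coreceptor Lrp6 at 47.9 CPM and 20.5 CPM. Inside the cell, 18 of 21 genes were on: beta-catenin (Ctnnb1) stood at 910.5 CPM and 956 CPM, the kinase Csnk1a1 at 561 CPM and 401 CPM and the repressor Tcf7l1 (Tcf3) at 193 CPM and 212 CPM. Tcf7l1 was 9.44 and 11.3 times as high as the activator Tcf7. The feedback target Axin2 was low at 2.19 CPM and 0.648 CPM, and Rnf43 had 2 and 1 counts.

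Among Nodal and activin genes, 15 of 19 were on. The coreceptor Tdgf1 (Cripto) was the highest at 792 CPM and 672 CPM, far above its ligand Nodal at 19.2 CPM and 22.8 CPM and above the antagonists Lefty1 and Lefty2, the latter at 117 CPM and 152 CPM. Inhbb, the beta B chain of activin, stood at 119.6 CPM and 129.7 CPM, and Inhba, Gdf1 and Acvr1c had 0 counts. Foxh1, the nuclear partner of Smad2, had 4 and 1 counts. Of BMP genes 14 of 23 were on, or 60.9%, near the 52.2% of all protein-coding genes. Bmp4 at 252 CPM and 178 CPM was the single abundant ligand, and Bmp2, Bmp5, Bmp6, Bmp15 and Smad9 had 0 counts. The BMP targets Id1, Id3 and Id2 stood at 137 CPM and 101 CPM, 64.2 CPM and 91.2 CPM and 55.1 CPM and 60.6 CPM. The TGF-beta list had no high gene, with Tgfbr1 at 21.2 CPM and 14.1 CPM and Tgfbr2 at 2.46 CPM and 1.95 CPM.

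Hedgehog ligands were at the floor: Shh had 0 counts, Ihh 1 and 2 counts and Dhh 0 and 2 counts. The receptor Ptch1 stood at 219 CPM and 193 CPM, Gli1 at 79.2 CPM and 69.3 CPM and the ligand-binding protein Hhip at 84.1 CPM and 59.2 CPM, 3 genes that Hedgehog signalling is known to induce. Smo, the transducer, stood at 3.77 CPM and 1.85 CPM. Of 17 Notch genes 12 were on, led by the DNA-binding factor Rbpj at 231 CPM and 171 CPM, Hes1 at 181 CPM and 117 CPM, Notch1 at 36.5 CPM and 17.2 CPM and Notch3 at 17.7 CPM and 15.2 CPM, and Dll4 had 0 counts. The Hippo list had 17 of 19 on, with Nf2 at 209 CPM and 173 CPM, Yap1 at 175 CPM and 182 CPM, Wwtr1 (Taz) at 118 CPM and 106 CPM and Tead1 at 138 CPM and 81.4 CPM. Of the insulin and IGF list 16 of 20 were on, with Akt1 at 49.4 CPM and 67.5 CPM, Rictor at 62.3 CPM and 43.7 CPM and Mtor at 45.5 CPM and 43.4 CPM, and the ligand Igf2 had 0 counts.

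**Figure D4:**
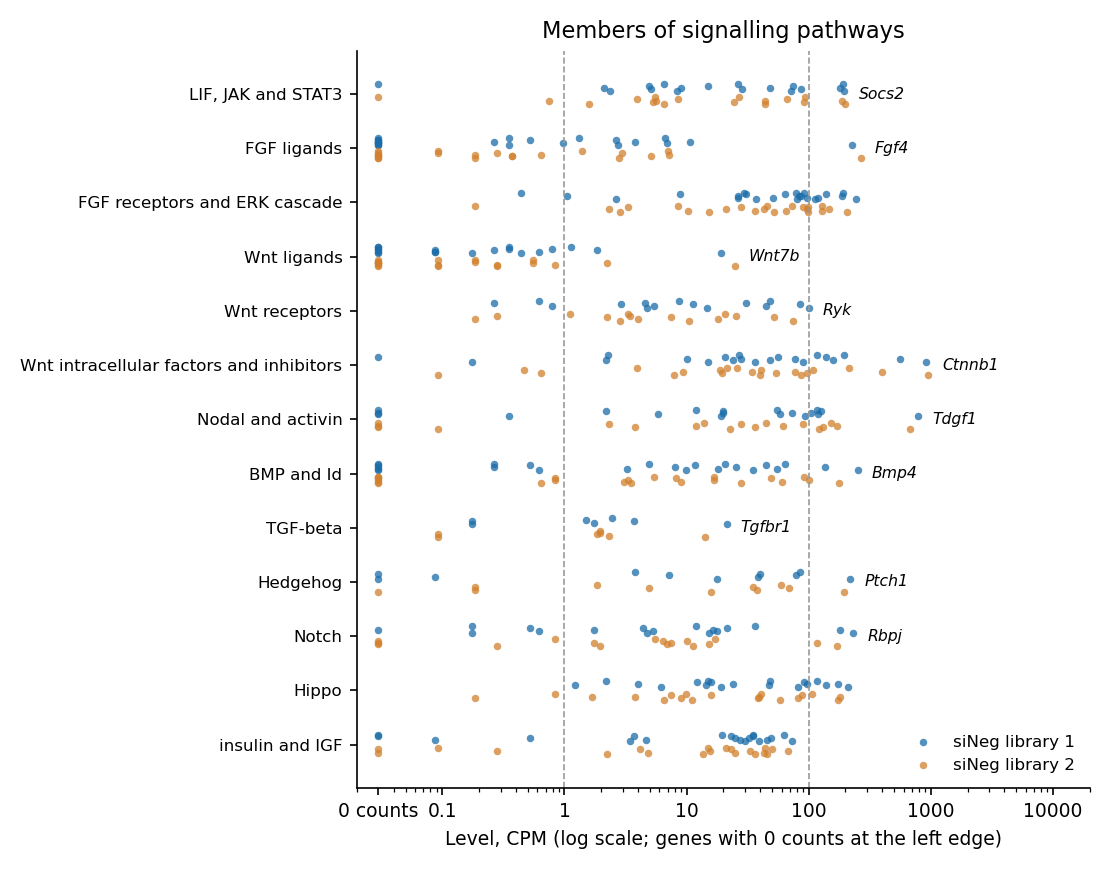
Level in CPM (log scale) of the members of signalling pathway lists in siNeg library 1 (blue, upper row) and library 2 (orange, lower row), with the leading gene named for 10 of the 13 lists and dashed lines at 1 and 100 CPM. Among FGF ligands Fgf4 stands alone above 100 CPM, and among Wnt ligands Wnt7b stands alone above 3 CPM.

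Cell cycle genes were broadly on. Of 14 cyclins 12 were on and 8 were high, led by Ccnd3 at 409 CPM and 575 CPM and Ccnb1 at 341 CPM and 457 CPM, with Ccnd2 at 199 CPM and 304 CPM and Ccnd1 at 226 CPM and 230.2 CPM. All 6 kinases listed were on, Cdk1 at 159.6 CPM and 229 CPM and Cdk4 at 163 CPM and 205 CPM being the highest. All 8 E2F factors were on between 11.5 and 85.7 CPM in each library, led by E2f4 at 85.7 CPM and 71.1 CPM. Inhibitors were present beside them: Cdkn1a (p21) stood at 163 CPM and 135 CPM and Cdkn1b (p27) at 128 CPM and 92.1 CPM. Trp53 stood at 56.5 CPM and 36.5 CPM and Mdm2 at 135 CPM and 160.0 CPM. Cdkn2c had 1 and 3 counts, the lowest of the 12 genes in the list of inhibitors.

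Described targets of the deleted microRNAs, a list from the literature, were on in 14 of 15 cases, with a median of 21.6 CPM. Arid4b led at 251 CPM and 154 CPM, followed by Cdkn1a, Ei24 at 108 CPM and 119 CPM and Zfp36l1 at 114 CPM and 57.3 CPM. Rbl2, a pocket protein that restrains E2F, stood at 13.9 CPM and 8.89 CPM, the Hippo kinase Lats2 at 6.14 CPM and 6.58 CPM and the caspase Casp2 at 21.5 CPM and 21.8 CPM. Dkk1 had 0 and 5 counts. Without a library of cells that have the cluster, these levels show no effect of its loss. Sites that pair with the shared seed are shown for 4 of them, with the match to bases 2 to 8 (AGCACTT) in capitals, read 5′ to 3′ along the message in GENCODE M21 3′ untranslated regions.
Cdkn1a (chr17:29099814-29099835, plus strand): cctcagacctgaatAGCACTTt
Rbl2 (chr8:91123816-91123837, plus strand): gtatttttcaataaAGCACTTa
Lats2 (chr14:57691086-57691107, minus strand): tacagtatggaaagAGCACTTa
Casp2 (chr6:42281544-42281565, plus strand): tgatataacctagaAGCACTTg
The 15 targets held AGCACTT in 12 cases, against 14.6% of the 21054 protein-coding genes with an annotated 3′ untranslated region, and the list was drawn from reports that used such sites. The share with AGCACTT was 13.5% in genes of 1000 CPM or more, 16.5% from 100 to 1000 CPM, 18.8% from 10 to 100 CPM, 16.3% from 1 to 10 CPM and 10.2% in genes off. The regions also differed in length, from a median of 527 bases in the top class to 1235 bases from 10 to 100 CPM and 672 bases in genes off. Per 1000 bases, the match occurred 0.140 times in the top class, 0.138 times from 10 to 100 CPM and 0.0972 times in genes off.

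The machinery that makes and uses microRNAs was in place, with 16 of 17 genes on and 8 high. Drosha stood at 170.0 CPM and 178 CPM, Dicer1 at 149 CPM and 123 CPM and the export factor Xpo5 at 100.4 CPM and 123 CPM. Ago2, the slicing Argonaute, stood at 352 CPM and 242 CPM, 5.81 and 5.41 times as high as Ago1, and Ago4 had 8 and 1 counts. Ran, Ddx5 and Ddx17, which have other roles as well, headed the list at 843 CPM and 1473 CPM, 595 CPM and 566 CPM and 419 CPM and 471 CPM.

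Sensors of double-stranded RNA and interferon genes were mixed. The cells had received small interfering RNAs. All 13 interferon alpha genes and Ifnb1 had 0 counts, as had Mx1, Mx2, Irf7, Tlr7 and Ifit3. Eif2ak2 (PKR) stood at 17.9 CPM and 16.6 CPM and Ddx58 (RIG-I) at 42.6 CPM and 31.6 CPM, while Ifih1 (MDA5) had 1 and 0 counts. The membrane proteins Ifitm3, Ifitm1 and Ifitm2 were high at 570.1 CPM and 680.3 CPM, 314 CPM and 446 CPM and 111 CPM and 101 CPM, beside the adaptor Mavs at 66.5 CPM and 60.03 CPM. No untransfected library was analysed here, so no level is set against the state before transfection.

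Chromatin regulators were among the fullest lists. Of 27 Polycomb genes 26 were on and 12 high: Jarid2, which guides PRC2, stood at 1076 CPM and 1142 CPM, Mtf2 at 591 CPM and 474 CPM, and the catalytic subunit Ezh2 at 309 CPM and 281 CPM, 13.7 and 15.4 times as high as Ezh1. All 11 genes of H3K9 methylation were on, led by the heterochromatin proteins Cbx1 at 1327 CPM and 1236 CPM and Cbx5 at 599.7 CPM and 530.5 CPM, with Ehmt1 at 136 CPM and 108 CPM and Ehmt2 at 65.5 CPM and 59.1 CPM. Among DNA methylation genes 14 of 15 were on, led by the dioxygenase Tet1 at 446 CPM and 224 CPM, 26.7 and 23.0 times as high as Tet3. Uhrf1 and Dnmt1, which copy methylation at replication, stood at 168 CPM and 135 CPM and 167 CPM and 112 CPM, and the male germ cell enzyme Dnmt3c had 0 counts. The transcripts that the other siPOOLs of the study target stood here at 52.6 CPM and 44.5 CPM for Wiz, 35.3 CPM and 35.8 CPM for Tfap4 and 4.74 CPM and 2.13 CPM for Zic2.

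Of 34 imprinted genes 26 were on. The maternally expressed non-coding RNA Meg3 led at 1062 CPM and 562 CPM, and Rian and Mirg of the same domain stood at 85.7 CPM and 43.7 CPM and 95.6 CPM and 41.3 CPM. Ube3a, Kcnq1ot1 and Grb10 stood at 321 CPM and 237 CPM, 373 CPM and 144 CPM and 197 CPM and 212 CPM. H19 was on at 6.32 CPM and 7.04 CPM, while its neighbour Igf2 had 0 counts. On the sex chromosomes, Ddx3x stood at 821 CPM and 757 CPM and its Y-linked copy Ddx3y at 10.4 CPM and 6.67 CPM, and Uty and Eif2s3y were on at 5.00 CPM and 4.17 CPM and 4.21 CPM and 1.85 CPM. Xist, which silences an X chromosome in female cells, stood at 2.81 CPM and 2.32 CPM and its antisense partner Tsix at 88.98 CPM and 39.2 CPM, and reads of these overlapping genes cannot be told apart if strand was not used. Kdm5d had 0 counts.

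Of 30 glycolysis genes 20 were on and 12 were high, led by Aldoa. Hk2 stood at 626 CPM and 463 CPM, 16.8 and 12.9 times as high as Hk1, Ldha at 684 CPM and 656 CPM and the glucose transporter Slc2a1 at 462 CPM and 359 CPM. The liver form Slc2a2, the testis forms Pgk2 and Gapdhs, and Hk3 had 0 counts. The adhesion list was led by the epithelial Cdh1 (E-cadherin) at 622 CPM and 550.5 CPM, the matrix protein fibronectin (Fn1), often used as a mesenchymal marker, at 560.1 CPM and 319 CPM, the laminin receptor chain Itga6 at 309 CPM and 213 CPM and Epcam at 220.1 CPM and 189.7 CPM. N-cadherin (Cdh2) had 15 and 9 counts, and the mesenchymal factors Snai2 and Zeb2 had 4 and 5 counts and 4 and 1 counts. In the Myc network all 11 genes were on, led by Mga at 353 CPM and 221 CPM, Max at 190.3 CPM and 196 CPM and Mycn at 146 CPM and 136 CPM, and Myc itself stood at 11.8 CPM and 1.85 CPM. The survival factor Mcl1 stood at 385 CPM and 322 CPM, while Bcl2 had 11 and 9 counts.

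Gene families differed widely in how many members were on. Of 17 Kruppel-like factors 14 were on, with Klf9 at 819 CPM and 447 CPM next to Klf5 and Klf2, and the family held 0.407% and 0.308% of the reads. Of 19 Sox genes 11 were on, or 57.9%, near the 52.2% of all protein-coding genes. Sox2 held most of the family's reads: the summed level of the family was 1132 CPM and 927 CPM, and Sox13, the next member, stood at 66.2 CPM and 74.3 CPM. Among POU factors Pou2f1 (Oct1) was the highest at 284 CPM and 199.7 CPM, above Pou5f1. Of 39 Hox genes 2 were on, with Hoxb9 at 3.86 CPM and 2.50 CPM the highest, and 17 had 0 counts. Of 1107 olfactory receptor genes 6 were on, led by Olfr985 at 4.91 CPM and 4.35 CPM, and 1041 had 0 counts. Of 58 clustered protocadherins 4 were on, all of the gamma cluster. These 4 are annotated to end at the same base of chromosome 18 (37841873), as are other gamma members. Reads of that end cannot be assigned to a single member, so the calls within the gamma cluster are not those of single genes. Keratins had 9 of 54 on, with Krt17 at 94.7 CPM and 108 CPM and Krt42 at 74.3 CPM and 116 CPM above the simple epithelial pair Krt8 at 7.28 CPM and 7.78 CPM and Krt18 at 5.35 CPM and 5.46 CPM. Zfp zinc finger genes had 328 of 407 on, most of them at modest levels, and 15 were high, led by Zfp106 at 499 CPM and 409.6 CPM and Zfp706 at 284 CPM and 320.0 CPM.

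Among long non-coding RNAs, Gm42418, Malat1, Snhg3, Meg3 and Cct6a led. Of the hosts of small nucleolar RNAs, Snhg3 stood at 994 CPM and 721 CPM, Snhg1 at 395 CPM and 447 CPM and Gas5 at 405 CPM and 393 CPM, and 14 of 15 hosts were on. The small nucleolar RNAs themselves, which carry no poly(A) tail, had 30 of 1558 genes on, led by Snora73b, which lies within Snhg3, at 55.4 CPM and 115 CPM. Cct6a, counted here with the non-coding RNAs because the annotation lists it as a processed transcript, encodes a CCT subunit and stood at 525 CPM and 617 CPM. The hairpin genes on were 2, Mir703 at 177 CPM and 209 CPM and Mir5136 at 23.3 CPM and 19.7 CPM. TEC models peaked at 44.4 CPM and 32.7 CPM for Gm38359. Replication-dependent histone genes, whose messages also lack a poly(A) tail, had 25 of 70 on, led by Hist1h1e at 36.1 CPM and 37.5 CPM.

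Promoters of genes on and off differed in their bases. RefSeq windows of 300 bases, 250 before the start and 50 after it in GRCm38.p6, were matched for 16537 protein-coding genes. The motif GGGCGG, the GC box bound by Sp and Klf factors, was found on either strand in 62.5% of the 64 promoters of genes at 1000 CPM or more, 71.6% from 100 to 1000 CPM, 67.9% from 10 to 100 CPM, 62.5% from 1 to 10 CPM and 18.6% of genes off, against 48.0% of all. TATAAA was found in 9.38%, 6.77%, 5.84% and 7.03% of the same classes on and in 23.4% of genes off, so for neither motif did the share follow the level in order among genes on. CCAAT was found in 32.8% at 1000 CPM or more, 41.4% from 100 to 1000 CPM and 38.2% of genes off. CACGTG was found in 15.6%, 11.997% and 4.55% of the same 3 classes. CAGCTG, the E-box read by Tfap4 and other factors, was found in 9.38% at 1000 CPM or more and 10.9% from 100 to 1000 CPM. It was in 18.2% from 1 to 10 CPM, 19.5% of genes low and 15.1% of genes off. The median number of CpG was 24 from 100 to 1000 CPM, 18 from 1 to 10 CPM and 3 in genes off. These are descriptions of letters in a window, and a match is not a bound site. Among factors of the naive state, GGGCGG was in 5 of 11 promoters and TATAAA in 4 of 11, and among core and general pluripotency factors they were in 10 of 14 and 0 of 14. Single promoters depart from the class shares. The promoters of Sox2 (27 CpG) and Ncl (33 CpG), both high, and Afp (3 CpG), at 0 counts, are shown as cases that follow them. Nanog, also high, is shown as one that does not, with 4 CpG and none of the 5 motifs. Esrrb, high as well, had 7 CpG and none of the 5 motifs, and Neurog2, at 0 counts, had 10 CpG and 2 matches to GGGCGG. The windows are printed with matches to any of the 5 motifs on either strand in capitals.
Sox2 promoter (chr3:34649745-34650044, plus strand): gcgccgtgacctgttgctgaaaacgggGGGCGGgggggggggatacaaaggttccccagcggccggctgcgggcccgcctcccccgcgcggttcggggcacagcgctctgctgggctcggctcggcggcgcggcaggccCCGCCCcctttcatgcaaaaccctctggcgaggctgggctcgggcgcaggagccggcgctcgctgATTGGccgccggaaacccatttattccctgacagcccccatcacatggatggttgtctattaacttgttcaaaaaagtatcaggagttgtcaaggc
Ncl promoter (chr1:86359406-86359705, minus strand): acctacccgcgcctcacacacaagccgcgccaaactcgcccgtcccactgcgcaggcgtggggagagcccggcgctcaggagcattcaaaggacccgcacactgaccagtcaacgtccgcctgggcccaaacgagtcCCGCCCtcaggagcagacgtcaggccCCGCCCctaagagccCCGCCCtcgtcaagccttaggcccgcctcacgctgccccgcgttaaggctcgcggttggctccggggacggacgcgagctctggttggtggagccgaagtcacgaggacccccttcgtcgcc
Nanog promoter (chr6:122707239-122707538, plus strand): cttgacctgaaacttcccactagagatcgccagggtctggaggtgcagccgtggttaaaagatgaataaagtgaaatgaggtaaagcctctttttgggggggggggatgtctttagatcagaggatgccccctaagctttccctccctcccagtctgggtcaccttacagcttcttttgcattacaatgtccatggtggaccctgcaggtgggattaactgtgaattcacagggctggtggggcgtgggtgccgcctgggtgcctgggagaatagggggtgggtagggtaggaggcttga
Afp promoter (chr5:90490464-90490763, plus strand): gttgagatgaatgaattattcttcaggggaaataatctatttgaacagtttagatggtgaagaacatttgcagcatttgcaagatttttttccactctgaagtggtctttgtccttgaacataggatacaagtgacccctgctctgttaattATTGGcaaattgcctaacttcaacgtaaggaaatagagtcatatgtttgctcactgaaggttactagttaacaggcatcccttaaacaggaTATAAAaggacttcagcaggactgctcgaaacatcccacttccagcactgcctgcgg

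The spread between the libraries sets how far these levels can be read. Agreement was not closest at the top: of the 101 genes at 1000 CPM or more, 70.3% lay within 1.5-fold of each other in the libraries and 96.0% within 2-fold, with a median of 1.34-fold. Of the 1895 genes from 100 to 1000 CPM, with a median of 1.22-fold, 82.6% lay within 1.5-fold and 98.1% within 2-fold. From 1 to 10 CPM, 63.7% of 4334 genes lay within 1.5-fold and 86.7% within 2-fold, with a median of 1.353-fold. Among genes with a mean of 50 CPM or more, those with the largest excess in library 1 were Snrpf at 98.02 CPM and 16.6 CPM, Notum, an enzyme that inactivates Wnt proteins, at 117 CPM and 21.4 CPM, Pmpcb at 101 CPM and 21.03 CPM, Nr0b1 and the catenin Ctnnd1 at 159 CPM and 42.1 CPM. Among those with the largest excess in library 2 were Myo1f at 25.7 CPM and 76.8 CPM, Stra8, and the ribosomal protein genes Rplp1 at 1068 CPM and 2632 CPM and Rpl10a at 62.9 CPM and 153 CPM. The ratio moved with transcript length: library 2 over library 1 had a median of 1.34 in 399 protein-coding genes under 1000 bases, 0.960 in 3236 genes from 2000 to 4000 bases and 0.728 in 520 genes of 8000 bases or more, over genes with a mean of at least 10 CPM. The part of length in the ribosomal protein and mitochondrial shares was not tested.

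**Figure D5:**
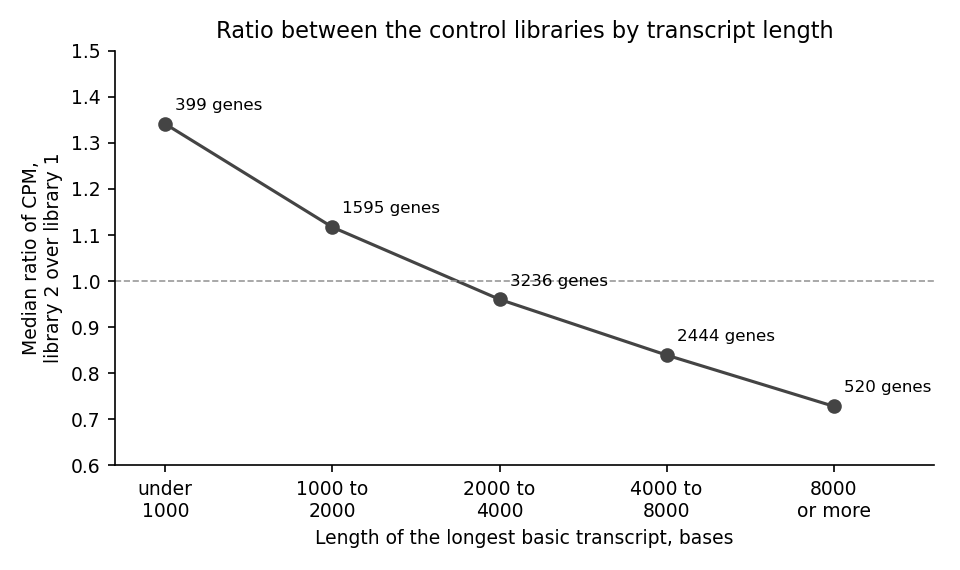
Median ratio of CPM in siNeg library 2 over library 1 (linear scale) for protein-coding genes in 5 classes of transcript length in bases, with the number of genes beside each point and a dashed line at 1. The ratio falls from 1.34 in the shortest class to 0.728 in the longest.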

How the data were processed

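Polyadenylated RNA was read as QuantSeq 3′ mRNA-Seq FWD libraries from 500 ng of RNA, per the labels' protocols. The authors deposited raw read counts per Ensembl gene, with no normalization, and the submitters' processing notes name Trim Galore and GRCm38 without versions. The alignment and counting of reads, the use of strand and the treatment of reads with several matches are steps not given in the sources used here. Each of the 8 columns was tied to a sample by its name, which left 0 columns over.

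Of 55421 identifiers, 55240 matched GENCODE M21. CPM is a gene's count divided by the library total (11395211 and 10795092, where 1 count is 0.0878 CPM and 0.0926 CPM), times 1000000. All results are descriptions of the 2 siNeg libraries, with no test, since no contrast was made. Shares have exact 95% binomial intervals, and the limit for 0 counts is 3 counts. The chi-square and the 2-fold limit between libraries were checked on simulated libraries with counting noise only, which is less than the spread seen here. The level calls were not checked in this way. Python 3.11.15, pandas 2.3.3 and scipy 1.17.1 were used, and edgeR 4.0.16 in R 4.3.3 gave TMM factors for an alternative.

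The 44 gene lists (707 symbols, 7 not in the annotation) and 33 families were chosen with earlier results of these data known, and the patterns of 3 families were corrected after a first look at their members. Genes named are the 30 most abundant, the 4 highest of each list, its members at 0 counts, the 3 highest of each family, the 5 highest of each non-coding class and the 5 with the largest ratio between the libraries in each direction at a mean of 50 CPM or more. The transcripts Tfap4, Wiz and Zic2 and the markers Pou5f1, Sox2 and Nanog are also named. Gene models without a name were mostly left out, and other list or family members named were chosen after their values were seen. The seed matches, transcript ends and length classes were also added after seeing the data. The alternatives were other denominators, TMM factors, other thresholds and each library alone. Some genes that the naming rule takes are not reported here.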

Additional observations from a re-analysis of the deposited data

How the results depend on the processing

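Of 42 values under the alternatives, 40 stayed within the spread of the libraries (shares) or within 1.5 times (counts). For shares with either library alone this outcome was fixed in advance, because each of 2 libraries always lies within 1 SD of their mean. Those values therefore say nothing of stability. The share of reads in protein-coding genes was 88.5% and became 94.1% with the reads of mitochondrially encoded genes left out of the denominator. It has no value with protein-coding genes as the denominator, where it is 100% by construction. The share in the 100 most abundant genes was 27.2% and became 30.8% over reads of protein-coding genes. The number of genes on was 12799, ranged from 9666 at 5 CPM to 14156 at 0.5 CPM, and was 13265 and 13580 with either library alone. Genes high numbered 1775, and 1946 to 2062 with either library alone. Listed genes on numbered 487, and 397 at 5 CPM to 510 at 0.5 CPM. Ribosomal protein genes held 8.32% to 12.4% and mitochondrially encoded mRNAs 3.85% to 5.02% with either library alone. With 2 libraries, an SD rests on a single difference. At these depths, genes under 3 counts per library cannot be called present or absent. No paired analysis was possible because the siNeg libraries form 1 group and no contrast was made.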
